A study of Mus musculus with 18 samples.

Results

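Cartilage and tendon genes formed a set of 8 genes, of 34150 in the files, whose RNA was followed through infarcted mouse heart tissue. Cilp, Cilp2, Chad, Acan and Hapln1 encode cartilage matrix proteins, Sox9 and Mkx transcription factors, and Tnmd a membrane protein of tendon. They were picked by name, with earlier results of these libraries in view, so the difference between infarcted and control hearts that brought them into the set is given as a description: its calls are counted beside those of all genes, with no p-value for a member, and support nothing. Of the 8 genes, 6 averaged 0.5 FPKM or more (fragments scaled to exon length and library depth) over the 18 libraries, the floor set for testing, and entered the fit across all genes. Mkx (mean 0.0587 FPKM) and Hapln1 (mean 0.0449 FPKM) lay below that floor. Of the tested members, Cilp alone averaged above 0.5 FPKM in control. Control means were 0.333 FPKM for Sox9, 0.122 for Chad, 0.0222 for Acan, 0.0209 for Cilp2 and 0.0126 for Tnmd. Those genes were tested only through their level outside control, which limits both comparisons with control.

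The study sequenced total RNA, depleted of ribosomal RNA, from heart tissue of control mice (6 libraries), of mice with myocardial infarction (MI, 6 libraries) and of HXP-treated mice (6 libraries). The series title sets the treatment in an acute infarction model. The sources used here do not give what HXP stands for, its dose, the strain, sex and age of the mice, the infarct procedure, the sampled region or the collection times. They also leave unsaid whether every HXP mouse carried an infarct and what the control mice underwent. The study counts 6 mice per group, and the labels give no pooling.

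A heart muscle wall that has lost its cardiomyocytes is closed by a collagen scar laid down by fibroblasts. In mice, fibroblasts of mature infarct scars are known to take on genes of cartilage and tendon, tissues whose matrix is built to bear load, and such cells have been called matrifibrocytes. In cartilage, SOX9 switches on collagen II and aggrecan, and aggrecan is held on hyaluronan by the link protein HAPLN1. In tendon, Scleraxis and Mohawk (Mkx) act upstream of collagen I and tenomodulin.

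Read depth, worked out from the step size of the FPKM values, was 75.8 to 81.1 M per library. The cardiomyocyte list summed to 10918 to 12243 FPKM in control, which fits the label of heart tissue. Before the results, 4 libraries need naming. MI 5 carried lung epithelial markers (8 of 9 listed genes in the files) at a summed 1186 FPKM, where no other MI library passed 2.07. MI 4 carried skeletal muscle markers (10 of 10 in the files) at 98.7 FPKM, and the next MI library stood at 16.7. HXP 6 lay below every control library in its summed scar fibroblast genes, at 26.7 FPKM against 55.7 to 88.8, and HXP 5 had the highest HXP sums of atrial markers (28.5 FPKM) and skeletal muscle markers (21.3 FPKM). Adipocyte markers also stood apart, at 467.6 FPKM in HXP 2, 405.1 in HXP 3, 348.6 in MI 3, 197.8 in MI 1 and 125.5 in MI 4, against at most 18.4 in control and 16.1 in MI 5. Mesothelial and epicardial markers were highest in HXP 2, at 107.4 FPKM against at most 3.59 in control. The part of the other tissues in the results was not tested.

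Cilp, the cartilage intermediate layer protein, was the most abundant member in every group (ENSMUSG00000042254, GRCm38 chr9:65265180-65280605, plus strand). Control libraries 1 to 6 held 2.78, 1.53, 1.94, 3.62, 2.60 and 1.41 FPKM. MI libraries 1 to 6 held 89.2, 63.5, 111.8, 92.2, 171.1 and 32.8 FPKM, and HXP libraries 1 to 6 held 40.4, 73.9, 208.3, 21.8, 22.4 and 0.499 FPKM. Every MI library stood above every control library, whereas HXP ran from below the lowest control to above the highest MI library. The MI mean was 93.4 ± 46.8 FPKM (SD, n = 6) and the control mean 2.32 ± 0.845 FPKM (SD, n = 6), a difference of 4.70 on the scale of log2(FPKM + 1) with a standard error of 0.79. In bulk tissue, more cells of a type and more RNA per cell cannot be told apart.

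Cilp2, the paralog of Cilp (ENSMUSG00000044006, chr8:69880369-69887687, minus strand), was nearly silent in control, at 0 to 0.0474 FPKM. MI libraries 1 to 6 held 1.79, 0.657, 8.89, 8.02, 12.1 and 0.838 FPKM. HXP libraries 1 to 6 held 1.21, 2.27, 5.50, 0.709, 0.191 and 0.00604 FPKM. The paralogs did not keep a fixed ratio within MI. Cilp2 came to 7.95, 8.69 and 7.09 FPKM per 100 FPKM of Cilp in MI 3, MI 4 and MI 5, and to 2.01, 1.04 and 2.55 in MI 1, MI 2 and MI 6. In HXP the ratio ran from 0.855 to 3.25, below MI 3, MI 4 and MI 5 in every library. This ratio was chosen after its values were seen.

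**Figure D1:**
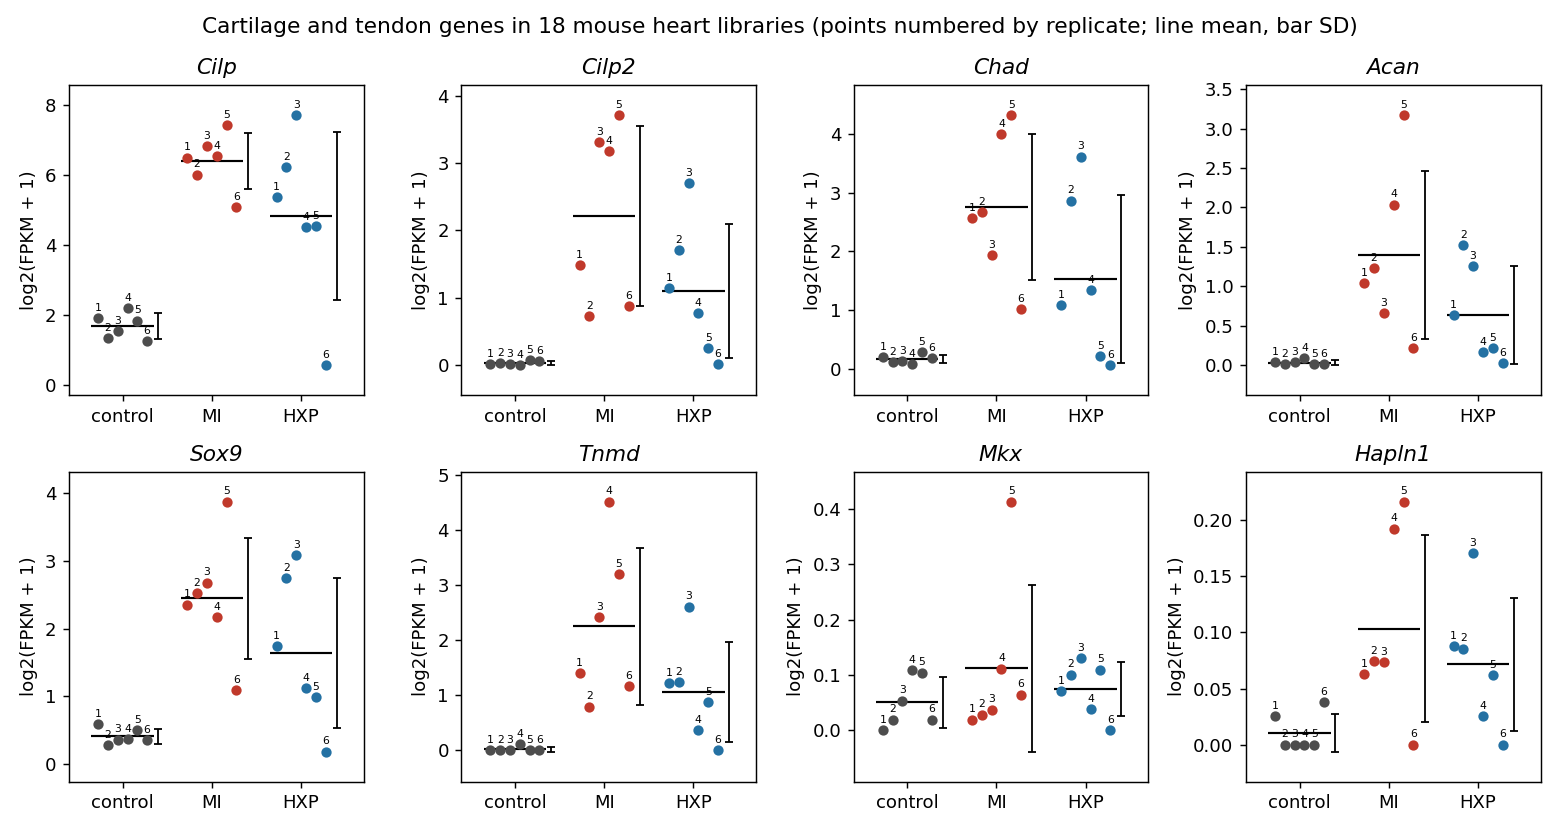
Levels of the 8 genes as log2(FPKM + 1), with 1 numbered point per library, a line at the group mean and a bar of 1 SD. In the first 6 panels every MI point is above every control point, while HXP points run from within or below the control range into the MI range. The y axes of Mkx and Hapln1 cover only very low values.

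Chad encodes chondroadherin, a leucine-rich protein of cartilage matrix that binds collagen and cells (ENSMUSG00000039084, chr11:94565047-94569127, plus strand). It was at 0.0532 to 0.221 FPKM in control. MI libraries 1 to 6 held 4.94, 5.34, 2.84, 15.1, 19.1 and 1.03 FPKM, and HXP libraries 1 to 6 held 1.11, 6.30, 11.3, 1.54, 0.161 and 0.0465 FPKM. MI 4 and MI 5 stood well above the other MI libraries, and HXP 5 and HXP 6 lay within or below the control range. Chad lies inside Acsf2 on the opposite strand but shares no exon bases with it, and the strand setting of the counting is not given in the sources used here. Acsf2 was at 7.31 to 11.5 FPKM in all 18 libraries.

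Acan encodes aggrecan, the large proteoglycan that holds water in cartilage (ENSMUSG00000030607, chr7:79053483-79115099, plus strand). Control libraries held 0.00685 to 0.0615 FPKM. MI libraries 1 to 6 held 1.05, 1.35, 0.574, 3.11, 8.03 and 0.162 FPKM, and HXP libraries 1 to 6 held 0.547, 1.88, 1.40, 0.121, 0.162 and 0.0139 FPKM. Aggrecan had the widest range among MI libraries of the 6 tested members, the highest being 49.5 times the lowest, against 5.21 times for Cilp. Hapln1, its link protein (ENSMUSG00000021613, chr13:89539796-89611652, plus strand), was far lower. Control libraries 1 to 6 held 0.0176, 0, 0, 0, 0 and 0.0265 FPKM, MI libraries 0.0445, 0.0529, 0.0524, 0.143, 0.162 and 0 FPKM and HXP libraries 0.0625, 0.0611, 0.125, 0.0175, 0.0437 and 0 FPKM. These groups overlapped. In MI 5, where both were highest in MI, aggrecan stood at 8.03 FPKM and Hapln1 at 0.162 FPKM.

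Sox9, the transcription factor that drives cartilage formation (ENSMUSG00000000567, chr11:112782224-112787760, plus strand), had a low level in control of 0.216 to 0.507 FPKM. MI libraries 1 to 6 held 4.11, 4.75, 5.39, 3.48, 13.6 and 1.14 FPKM. HXP libraries 1 to 6 held 2.34, 5.70, 7.48, 1.18, 0.985 and 0.139 FPKM. All MI libraries and all HXP libraries but HXP 6 lay above the control range. Mkx, the Mohawk homeobox factor of tendon (ENSMUSG00000061013, chr18:6934518-7004780, minus strand), was barely detected. Control libraries 1 to 6 held 0, 0.0134, 0.0377, 0.0780, 0.0749 and 0.0133 FPKM, MI libraries 0.0134, 0.0199, 0.0262, 0.0804, 0.332 and 0.0456 FPKM and HXP libraries 0.0503, 0.0722, 0.0942, 0.0264, 0.0788 and 0 FPKM. MI 5 was highest, and the groups overlapped. It shares 201 of 4095 exon bases with a gene on the same strand, and the reads of the pair cannot be told apart there.

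Tnmd encodes tenomodulin, a membrane glycoprotein of tendon and ligament cells (ENSMUSG00000031250, chrX:133850980-133865577, plus strand). It was listed at 0 in 5 of the 6 control libraries and at 0.0755 FPKM in control 4. MI libraries 1 to 6 held 1.64, 0.730, 4.34, 21.8, 8.15 and 1.25 FPKM, and HXP libraries 1 to 6 held 1.32, 1.36, 5.09, 0.287, 0.838 and 0 FPKM. MI 4, the library with the skeletal muscle markers, had the highest Tnmd, while for the other 5 tested members MI 5 was highest.

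The 6 tested members lay 1.36 (Acan) to 4.70 (Cilp) higher in MI than in control on the scale of log2(FPKM + 1), with standard errors from 0.38 to 0.79. Between these stood Sox9 at 2.04 (standard error 0.44), Cilp2 at 2.18 (0.51), Tnmd at 2.23 (0.52) and Chad at 2.59 (0.59). The added 1 FPKM compresses folds of genes this low: with 0.1 in its place the differences were 3.54 for Acan, 3.37 for Sox9, 4.66 for Chad, 4.76 for Cilp2, 4.95 for Tnmd and 5.18 for Cilp. In all 6 genes every MI library was above every control library, which held for 27.9% of the 13710 genes tested. The share of reads from mitochondrial genes separated the same groups, at 29.9% to 34.7% in control and 16.6% to 27.4% in MI, with MI 5 lowest in MI. In HXP it was lowest in HXP 3 (16.6%) and highest in HXP 6 (36.8%). Scaled to non-mitochondrial reads, all 6 genes stayed higher in MI and past the threshold. All 6 also passed an adjusted p below 0.05 in limma, as did 40.1% of all genes in the upward direction; the choice of the members used this contrast and nothing is read from the count. None of the 6 passed without MI 4 and MI 5, and in that fit no gene of the 13710 passed. The differences were then 4.41 for Cilp, 1.88 for Chad, 1.75 for Sox9, 1.57 for Cilp2, 1.43 for Tnmd and 0.75 for Acan. Within the longest run of library numbers (3 control, 5 MI and 2 HXP libraries) Cilp alone passed, and the differences were 0.99 for Acan to 4.51 for Cilp. Over all 13710 genes, 74 were called higher and 5 lower in that fit.

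**Figure D2:**
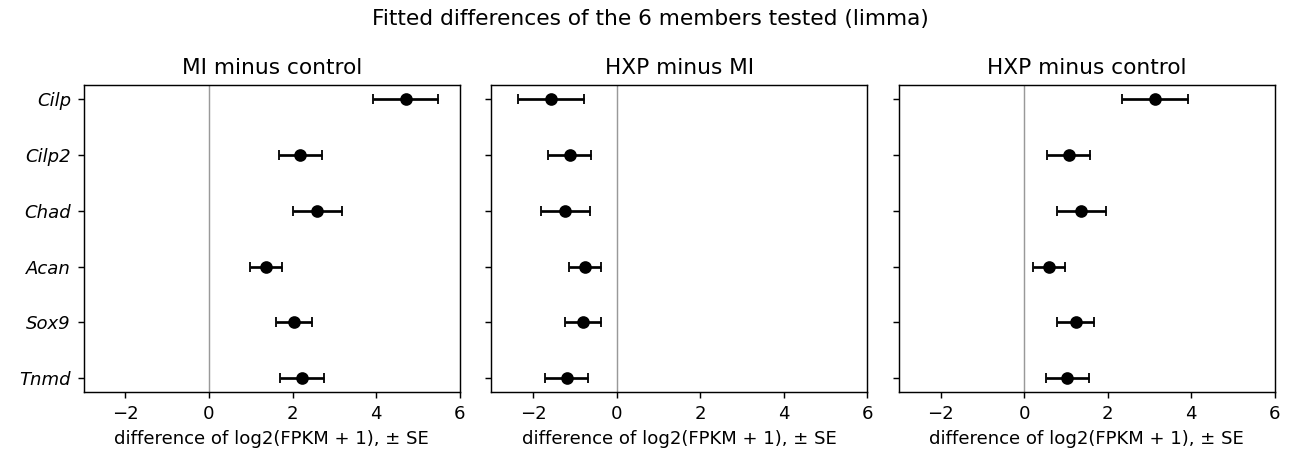
Fitted differences of log2(FPKM + 1) with standard errors for the 6 tested members in the 3 comparisons. In MI minus control they run from 1.36 to 4.70, in HXP minus MI from -1.57 to -0.76 and in HXP minus control from 0.60 to 3.13.

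The promoter windows of the 5 tested members that have one are shown, since these genes were high in MI and low in control together. Each is the RefSeq window on GRCm38.p6 from 250 bases before to 50 bases after the annotated start, read 5′ to 3′ on the gene's strand, with the motif matches in capitals: TGTGGT of RUNX factors as its reverse complement in Cilp, TATAAA in Chad, CATTCC of TEAD factors in Acan and ACAAAG of SOX factors as its reverse complement in Tnmd. The windows lie at chr9:65264930-65265229 (Cilp, plus), chr8:69887343-69887642 (Cilp2, minus), chr11:94564797-94565096 (Chad, plus), chr7:79052976-79053275 (Acan, plus) and chrX:133850758-133851057 (Tnmd, plus).
Cilp: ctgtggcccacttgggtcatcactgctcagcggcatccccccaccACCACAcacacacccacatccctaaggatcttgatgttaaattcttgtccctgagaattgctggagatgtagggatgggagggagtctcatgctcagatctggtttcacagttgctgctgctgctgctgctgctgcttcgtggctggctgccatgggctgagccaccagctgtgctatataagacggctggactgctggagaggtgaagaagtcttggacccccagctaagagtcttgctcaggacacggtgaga
Cilp2: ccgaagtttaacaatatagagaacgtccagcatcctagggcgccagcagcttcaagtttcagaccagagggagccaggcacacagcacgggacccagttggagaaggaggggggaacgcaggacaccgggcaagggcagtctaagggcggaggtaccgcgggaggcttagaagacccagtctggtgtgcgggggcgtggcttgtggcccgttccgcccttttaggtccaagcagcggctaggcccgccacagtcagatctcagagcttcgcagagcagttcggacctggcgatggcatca
Chad: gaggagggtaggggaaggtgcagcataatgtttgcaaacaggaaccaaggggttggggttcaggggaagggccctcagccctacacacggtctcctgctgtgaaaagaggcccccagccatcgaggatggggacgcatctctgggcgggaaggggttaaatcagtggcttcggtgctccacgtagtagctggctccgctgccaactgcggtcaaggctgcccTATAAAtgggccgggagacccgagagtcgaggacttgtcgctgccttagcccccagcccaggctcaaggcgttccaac
Acan: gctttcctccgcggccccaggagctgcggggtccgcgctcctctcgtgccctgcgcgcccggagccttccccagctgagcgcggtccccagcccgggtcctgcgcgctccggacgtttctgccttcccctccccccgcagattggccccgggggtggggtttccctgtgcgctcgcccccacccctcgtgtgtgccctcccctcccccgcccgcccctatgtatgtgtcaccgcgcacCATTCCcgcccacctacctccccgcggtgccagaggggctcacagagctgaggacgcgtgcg
Tnmd: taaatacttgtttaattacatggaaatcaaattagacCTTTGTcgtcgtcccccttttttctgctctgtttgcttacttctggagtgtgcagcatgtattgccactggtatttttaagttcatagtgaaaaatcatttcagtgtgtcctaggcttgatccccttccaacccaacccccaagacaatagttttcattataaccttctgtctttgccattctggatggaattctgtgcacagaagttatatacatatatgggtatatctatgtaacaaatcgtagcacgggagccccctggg

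Windows were found for 6 of the 8 genes (not for Sox9 and Mkx), and 6 motifs were searched on both strands. ACAAAG, in Tnmd alone among the 6, is in 18.7% of 32851 windows of this length, and TGTGGT, in Cilp and Hapln1, is in 16.8%. The TATA motif TATAAA was in Chad and in 13.6% of all windows, and the TEAD motif CATTCC in Acan and in 14.7%. The second SOX motif ACAATG (12.6% of windows) and the AP-1 motif TGANTCA (7.81%) were in none of the 6, and Cilp2 held no match to any of the motifs. No motif was shared by more than 2 of the 6 windows. A match is a string of letters and not a measured site.

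The level of each gene was set beside that of Col1a1, the main collagen of scar, to see which followed it. This ratio was chosen after seeing the data and has no test. Per 100 FPKM of Col1a1, Cilp came to 17.2 ± 5.14 FPKM in control, 37.9 ± 8.36 in MI and 40.2 ± 16.0 in HXP (SD, n = 6 each), with every MI library above every control. Sox9 came to 2.51 ± 0.842 FPKM in control, 1.91 ± 0.315 in MI and 2.88 ± 1.66 in HXP, and its groups overlapped. Tnmd and Cilp2 had the widest ratios in MI, from 0.347 to 9.54 FPKM and from 0.313 to 3.51 FPKM per 100 FPKM of Col1a1. Chad stood between, at 1.00 to 6.60 in MI against 0.339 to 1.73 in control. Acan was at 0.202 to 1.36 in MI against 0.0526 to 0.392 in control. Control reached 0.481 for Tnmd and 0.372 for Cilp2, so MI and control overlapped for every tested member but Cilp. How many of all genes do not overlap in this ratio was not counted.

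**Figure D3:**
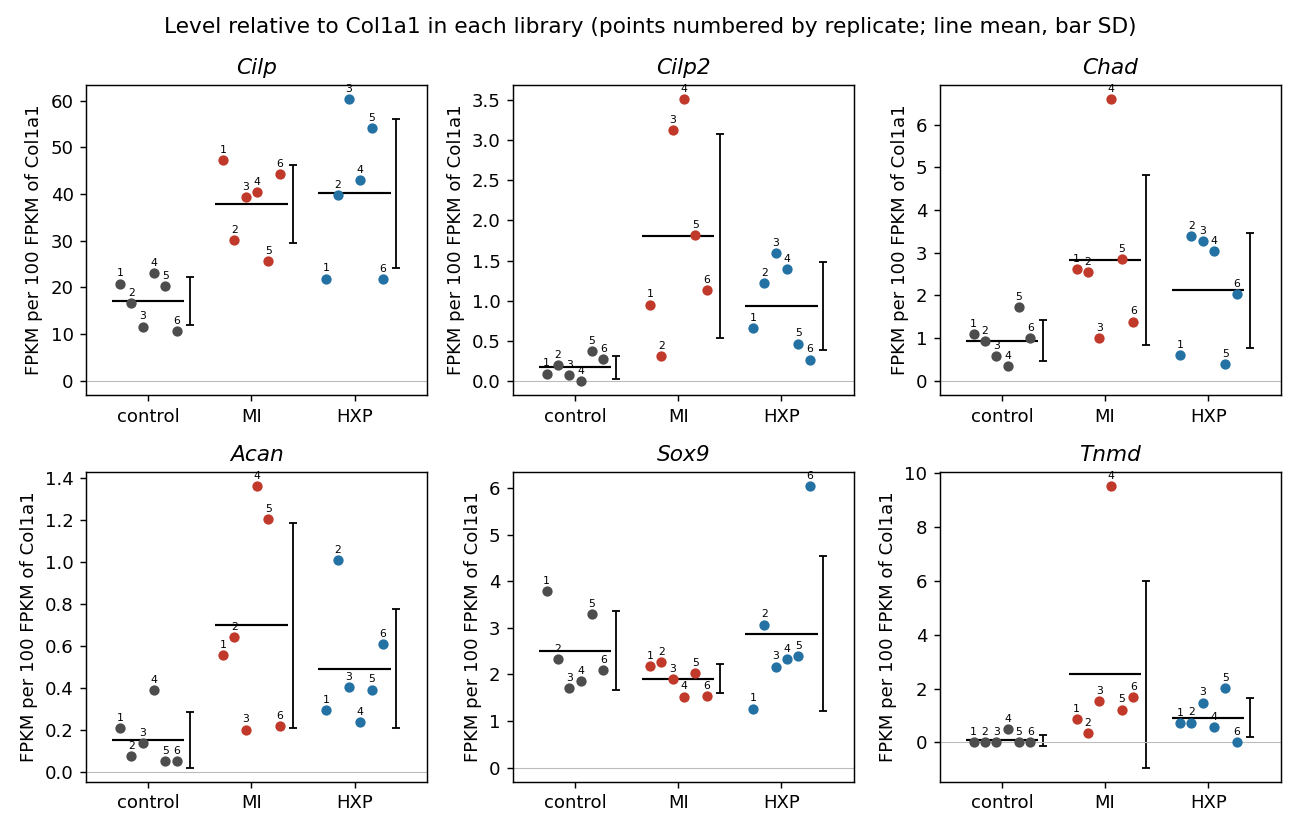
FPKM of the 6 tested members per 100 FPKM of Col1a1 in each library, by group. Cilp in MI (25.6 to 47.4) lay above control (10.7 to 23.1), and MI and control overlapped for every other gene shown.

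The highest and lowest libraries were largely shared among the members, while the order between them varied within MI. MI 5 was highest for 5 of the 6 tested genes and MI 6 lowest for 4, with MI 2 lowest for Cilp2 and Tnmd. In HXP, HXP 3 was highest for 5 genes, HXP 2 was highest for Acan, and HXP 6 was lowest for all 6. The summed scar fibroblast list ran from 339 to 2590 FPKM over MI and from 26.7 to 2025 FPKM over HXP, with MI 6 and HXP 6 at the low ends and MI 5 and HXP 3 at the high ends. Not every member kept its order within MI: MI 4 led for Tnmd and MI 2 was lowest for Tnmd and Cilp2, while the scar sums of MI 4 and MI 2 were 1075 and 1102 FPKM. MI 3 had rank 2 for Cilp, Cilp2 and Sox9 and rank 5 for Chad and Acan. Spearman's rho with the mean of the scar list in MI was 0.943 for Sox9, 0.6 for Cilp, Chad and Acan, 0.371 for Cilp2 and 0.0286 for Tnmd. In HXP it ran from 0.829 (Chad) to 1 (Cilp and Tnmd). These are descriptions with no p. The chondrocyte markers were at a far lower level. They summed to 0.353 to 0.967 FPKM in control, to 0.987 to 7.76 in MI, where MI 5 was highest, and to 0.329 to 5.39 in HXP, where HXP 3 was highest. The tenocyte markers, which include Tnmd, were highest in MI 4 at 24.7 FPKM.

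**Figure D4:**
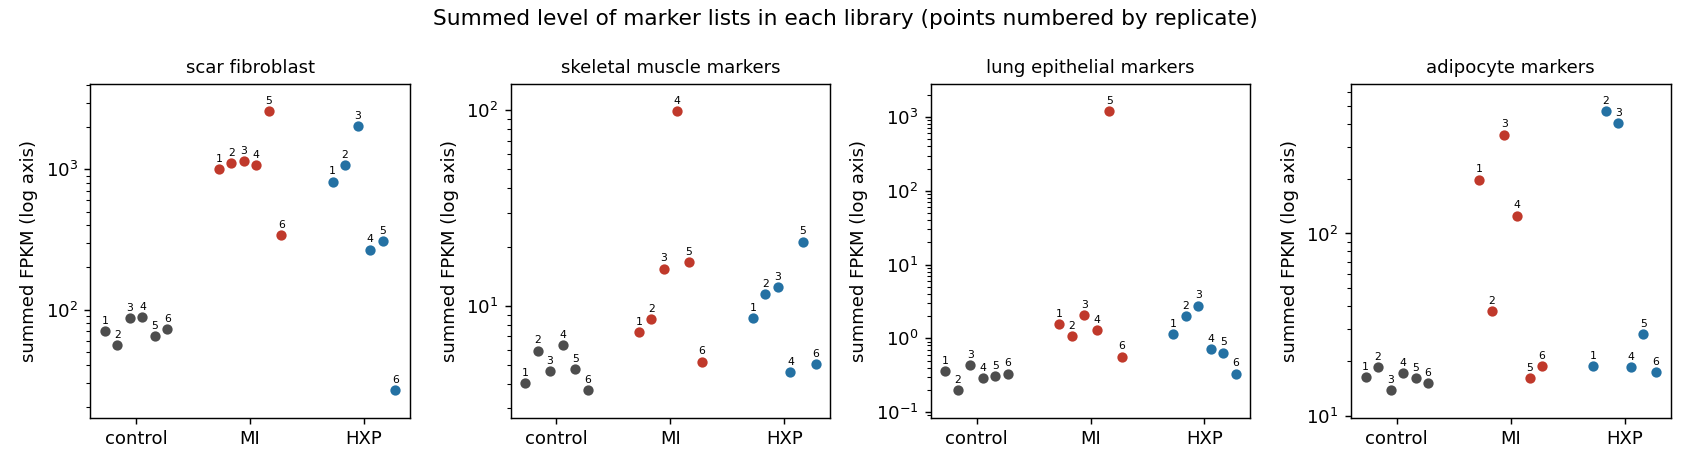
Summed FPKM of marker lists in each library on a log10 axis. Lung markers reach 1186 FPKM in MI 5 and skeletal muscle markers 98.7 FPKM in MI 4, while scar fibroblast genes run from 26.7 FPKM in HXP 6 to 2590 FPKM in MI 5.

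Other matrix genes of cartilage rose in MI too. Of 19 listed, 18 were in the files, 8 were tested, and 7 passed as higher in MI (limma, Benjamini-Hochberg adjusted p below 0.05, beside 40.1% of all genes); the median difference was 1.51, beside 0.27 over all genes. Comp, the pentameric protein that ties collagens together in cartilage and tendon, differed by 6.43 (standard error 1.02, limma adjusted p = 0.0127), the largest difference of all genes tested. Its mean was 236.6 ± 183 FPKM in MI and 1.01 FPKM in control. Fmod, a collagen-binding proteoglycan (5.36), Prelp, a related one (2.75), and Col11a1, a chain of cartilage collagen XI (1.79), also rose. Cnmd, chondromodulin of cartilage and the closest relative of Tnmd, did not pass (0.08, limma adjusted p = 0.727). The lists here and below were chosen with earlier results known. The floor is a mean over all 18 libraries, so some list genes were tested only through their level outside control. Col11a1 averaged 0.0076 FPKM in control and 3.24 in MI, and Col12a1 of the tendon list 0.0532 and 9.09. The counts of these lists are a description and support nothing.

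Col2a1 and Col9a1, collagens of hyaline cartilage, were far lower than Comp, Fmod and Prelp. Col9a2, a collagen IX chain, was tested and passed (1.03, limma adjusted p = 0.0146), at 0.252 to 3.36 FPKM in MI. Col2a1, the main collagen of cartilage, was at 0.0497 to 2.45 FPKM in MI with MI 5 highest, and at 0 in 5 of the 6 controls. Col9a1, another collagen IX chain, was at 0 in every control and reached 0.341 FPKM in MI. Matn1, matrilin 1 of cartilage, reached no more than 0.0263 FPKM in any library. Ucma and Epyc, small matrix proteins of growth cartilage, were at 0 in all controls and at 0.116 to 0.997 and 0.193 to 1.55 FPKM in MI. Col2a1, Col9a1, Matn1, Ucma and Epyc were below the floor of the fit, and their part in the members' result was not tested.

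Of 13 listed regulators of cartilage formation, 12 were in the files and 7 were tested. In MI, 6 of them rose (beside 40.1% of all genes), with a median of 0.72 beside 0.27 over all genes, and the largest were Pth1r, the parathyroid hormone receptor (1.03), Wwp2, a ubiquitin ligase that works with Sox9 (0.90), Runx1 (0.88) and Trps1 (0.72). Sox6, a partner of Sox9 in cartilage, did not pass (0.04, limma adjusted p = 0.697). Sox9 itself, at 2.04, lay above these. Among listed regulators below the floor, Sox5 was at 0.171 to 0.534 FPKM in MI and 0.0737 to 0.130 in control. Runx2 also lay higher in every MI library than in any control, while Runx3, Ihh and Gdf5 overlapped.

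Among 11 tendon genes, 9 were tested and 7 rose in MI (beside 40.1% of all genes), with a median difference of 2.87 beside 0.27. The largest after Fmod were Thbs4, a thrombospondin of tendon and muscle matrix (4.45), Col14a1 (3.40) and Col12a1 (2.94), collagens that lie on the surface of collagen fibrils. Scx, the Scleraxis factor upstream of tenomodulin, rose by 0.96 (standard error 0.34, limma adjusted p = 0.0350), with 0.435 to 1.34 FPKM in control and 0.573 to 6.76 in MI. Egr1, an early response factor, did not pass (0.96, limma adjusted p = 0.0547).

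The tested genes of the network that builds and cuts the aggrecan and hyaluronan coat were also higher in MI. All 10 tested of 18 listed genes passed (beside 40.1% of all genes), with a median of 0.85 beside 0.27. Vcan, versican, a close relative of aggrecan, led with 1.46, and Cd44, the hyaluronan receptor (1.10), Chsy1 (1.09) and Xylt1 (0.97), enzymes that build glycosaminoglycan chains, followed. The hyaluronan synthases were below the floor: Has2 was at 0.277 to 1.18 FPKM in MI and 0.0664 to 0.252 in control. Has1 was at 0.196 to 0.992 FPKM in MI and 0 to 0.0566 in control. Has3 overlapped, at 0.324 to 0.648 FPKM in MI and 0.253 to 0.628 in control. Hapln2, Hapln3, Hapln4, Bcan and Ncan, also below the floor, overlapped between MI and control too. Adamts4 and Adamts5, which cut aggrecan, differed by 0.87 and 0.64. Without MI 4 and MI 5 no gene of these 4 lists passed; within the longest run of library numbers the counts were 2 for cartilage matrix, 0 for the regulators, 4 for tendon and 0 for the hyaluronan network. With a floor of 1 FPKM in place of 0.5, only Pth1r and Wwp2 of the regulators were tested, and these 2 passed.

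**Figure D5:**
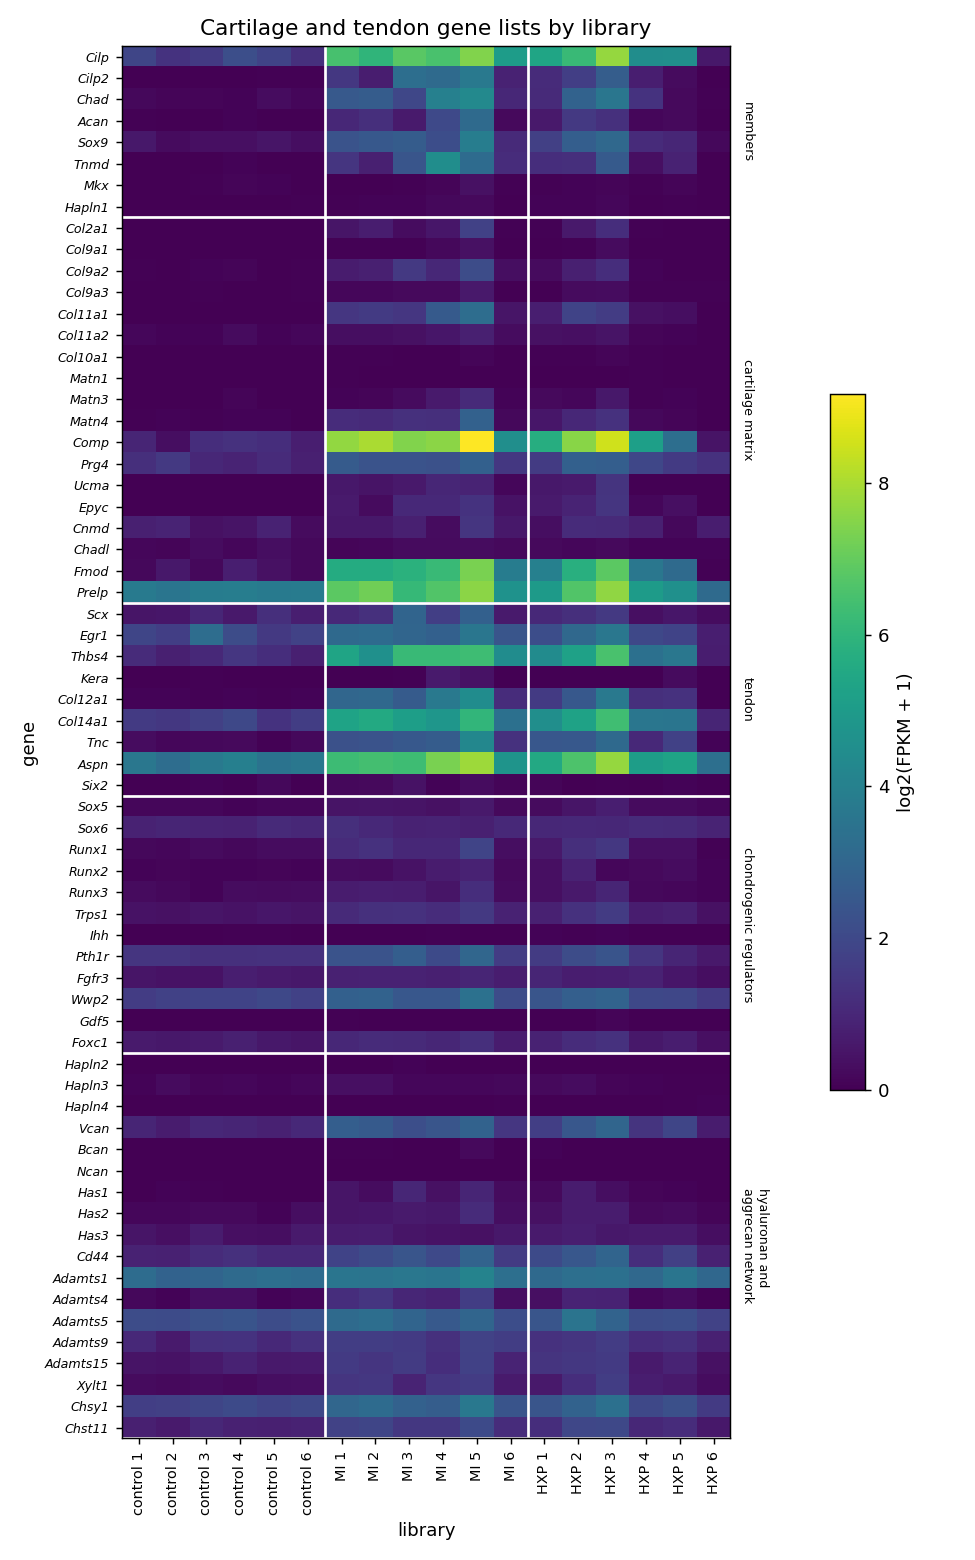
Levels of the members and of the listed genes as log2(FPKM + 1), by colour, with libraries in columns and genes in rows, grouped by list (1 tendon gene is left out). Comp, Fmod, Prelp, Thbs4 and Cilp are bright in MI and in HXP 3 and dark in control and HXP 6 (Prelp less so), and Col2a1, Col9a1 and Matn1 are dark nearly throughout.

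The comparison of HXP with MI asks whether the treatment changed these genes. No member passed: limma called 0 of 6 and 0.00% of all genes, and voom on the recovered reads also called 0 of 6. At an unadjusted p below 0.05 were 2 of the 6, Cilp2 and Tnmd, beside 13.8% of all genes. All 6 differences were negative, beside 75.4% of all genes, and their median was -1.16, beside -0.12 over all genes and -1.27 over the scar fibroblast list. Cilp differed by -1.57 (limma adjusted p = 0.375), Chad by -1.22 (adjusted p = 0.363), Tnmd by -1.20 (adjusted p = 0.335) and Cilp2 by -1.12 (adjusted p = 0.357). Sox9 and Acan differed by -0.80 and -0.76 (limma adjusted p = 0.406 and 0.380). Standard errors are those given for MI against control, since the groups are of equal size and the model gives them 1 shared spread. That spread takes in the control libraries, where Cilp2 was at most 0.0474 FPKM and Tnmd at most 0.0755 FPKM. The spreads of the groups were not alike, which limits the unadjusted p-values of HXP against MI. The HXP and MI libraries overlapped in all 6 genes; every HXP library lay below every MI library for 0.306% of all genes. In the lists an unadjusted p below 0.05 was reached by 5 of 8 cartilage matrix genes, 4 of 9 tendon genes, 4 of 10 genes of the hyaluronan network and 1 of 7 regulators, and none passed after adjustment. Comp differed by -2.29 (limma adjusted p = 0.344) and Scx by -0.90 (adjusted p = 0.309).

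The size of the difference from MI moved with HXP 6 and HXP 3. Without HXP 6 the difference of Cilp from MI was -0.72 (limma adjusted p = 0.810), and without HXP 3 it was -2.15 (adjusted p = 0.0820). Without MI 5 the difference of Acan was -0.40 (limma adjusted p = 0.700). Within the longest run of library numbers the 6 differences ran from -0.998 (Tnmd) to -0.17 (Acan), and without MI 4 and MI 5 from -1.28 (Cilp) to -0.15 (Acan). The members had been chosen with earlier results known, and the 3 comparisons share libraries, so their values stand side by side and not as separate support.

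Against control, the HXP difference was positive for all 6 members, where 27.2% of all genes had a negative one, and none passed (limma, 0 of 6, beside 0.314% of all genes called; voom also 0). At an unadjusted p below 0.05 were 3 of 6, beside 33.1% of all genes. Cilp differed by 3.13 (limma adjusted p = 0.0760), Sox9 by 1.23 (adjusted p = 0.101) and Chad by 1.37 (adjusted p = 0.127). Cilp2, Tnmd and Acan differed by 1.07, 1.03 and 0.60 (limma adjusted p = 0.155, 0.168 and 0.257). The calls moved with HXP 6, the library with the lowest scar gene sum. Without it, Cilp (3.98, limma adjusted p = 0.00235), Sox9 (1.53, adjusted p = 0.0210) and Chad (1.66, adjusted p = 0.0421) passed as higher, while Cilp2, Tnmd and Acan did not (limma adjusted p = 0.0661, 0.0768 and 0.155). All of these but Cilp had reached the floor only through MI and HXP, so their calls against control support nothing. In the fit without HXP 6, 3855 genes of 13710 were called higher and 381 lower, against 13 and 30 with HXP 6. Calls rose across all genes and not among the members alone. Without HXP 5 no member passed, and the differences from control ran from 0.69 (Acan) to 3.19 (Cilp). Where values were quantile normalized, scaled by median ratio or scaled to non-mitochondrial reads, 1 of the 6, Cilp, passed in each case. Over all 13710 genes, 539, 467 and 343 were then called higher and 692, 814 and 369 lower, against 13 and 30. Calls thus rose across all genes and not for Cilp alone.

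The genes most like each member were found by Pearson's r of log2(FPKM + 1) over the 18 libraries after each group's mean was removed, among 10800 other genes averaging 1 FPKM or more. The median r over those genes was 0.679 for Sox9, 0.556 for Chad, 0.501 for Cilp2, 0.461 for Acan and 0.358 for Tnmd. A positive r was thus common, its cause was not tested, and r has no p. Cilp moved most like Thbs4 (r = 0.975), Col3a1 (0.974) and Postn (0.973), genes of scar matrix, where the median gene had 0.657. Chad moved most like Col12a1 (0.947), Tsku (0.939) and Thbs2 (0.937), and Acan most like Col11a1 (0.974), with Hexdc (0.920) and Uts2r (0.909). Sox9 was closest to P2ry6 (0.986), Dram1 (0.981) and Sumf1 (0.981). Tnmd was closest to Angptl1 (0.957), C1qtnf3 (0.880) and Myl6b (0.871), and Cilp2 to Myl6b (0.921), Rps10-ps1 (0.906) and Trub1 (0.899). Among the members the closest pair was Chad and Acan (0.883), then Cilp2 and Tnmd (0.867) and Cilp and Sox9 (0.860), and the least close Sox9 and Tnmd (0.553).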

How the data were processed

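Each library has a deposited file of values for 34150 Ensembl genes. The deposited values are FPKM, a unit inferred from the values, since each value times its gene's exon length fell on whole multiples of 1 step (within 0.1 of a read for 97.8% to 98.1% of 9029 to 11022 values per library). Recovered low reads clustered at 4 (458 to 589 genes, against 59 to 100 at 3), so they are not independent molecules and no counting intervals are given. GRCm38 and limma are named in the submitters' processing notes without a role; the sources used here give no aligner, counter or annotation. IDs were matched to GENCODE M21 (34097 matched, 53 not).

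Values were tested as log2(FPKM + 1) for 13710 genes averaging 0.5 FPKM or more, in 1 model of 3 groups (limma 3.58.1, R 4.3.3, trend on), two-sided, with Benjamini-Hochberg adjustment over all genes and calls below 0.05. The p-values reflect only the spread from library to library, in which mouse, dissection and library preparation are not separated. Members, lists and tests were chosen with earlier results of these data known. Named genes are the 8 members, up to 4 called genes of largest difference per list, references (Col1a1, Postn, Myh6), genes below the floor where few are counted, and 3 genes most like each member. Other named genes below the floor, list genes that did not pass, and Scx, Col9a2, Adamts4 and Adamts5 were chosen after seeing the values. So were the ratios to Col1a1 and Cilp. Alternatives were another pseudocount, filter or prior, 3 scalings, voom on recovered reads, the compared groups only, a replicate block, the run of library numbers, MI 4 and MI 5 left out, MI 1 and MI 2 averaged (the closest pair, yet further apart than sampling noise and kept as 2 libraries), and each library left out. The fit was tested on simulated data. A listed gene is not reported here by name. Promoters are RefSeq's. Figures used matplotlib 3.10.9 in Python 3.11.15.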

Additional observations from a re-analysis of the deposited data

Results flagged for a closer look

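Of 18 sets of 6 libraries tested (6 members in 3 groups), 1 held a library whose gap to the rest was above Dixon's 95% critical value, and chance gives about 1 in 20. It was Tnmd in control, where control 4 stood at 0.0755 FPKM and the other 5 libraries were listed at 0. With 5 libraries tied at 0, any value above 0 in control 4 would have been flagged. The rate of 1 in 20 does not hold for such ties, so nothing is read from the flag.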

How the results depend on the processing

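All 32 alternatives left the direction of the 6 members unchanged in all 3 comparisons. In MI against control the count of members called was 6 except within the longest run of library numbers (1) and without MI 4 and MI 5 (0); leaving out each library in turn gave 6 to 6. In those 2 settings cartilage matrix had 2 and 0 called in place of 7, the regulators 0 and 0 in place of 6 (and 2 with a floor of 1 FPKM, where these 2 alone were tested), tendon 4 and 0 in place of 7, and the hyaluronan network 0 and 0 in place of 10. In HXP against control quantile normalization, median-ratio scaling and scaling to non-mitochondrial reads each gave 1 called member in place of 0, and leaving out each library gave 0 to 3, the 3 without HXP 6. Calls over all genes rose too in these 3 scalings and without HXP 6. In HXP against MI all 192 values stayed negative and uncalled, from -2.78 to -0.15, with limma adjusted p from 0.0809 to 0.998. The causes were not tested. The 2 settings that lowered the count of members in MI against control hold fewer libraries, as do the fits that leave out 1 library and kept 6. The median gene in MI against control moved from 0.27 to -0.07 under quantile normalization and to -0.01 under median-ratio scaling, and higher and lower calls from 5494 and 440 to 1810 and 2371, and to 2257 and 2213. The run of 3 libraries held no HXP library and that of 5 no MI library, so only the longest gave all 3 comparisons.

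Libraries of the same replicate number correlated by -0.003 to 0.199 (MI and control), -0.313 to 0.635 (HXP and MI) and -0.144 to 0.0879 (HXP and control), and 3, 2 and 0 of 12 correlated best with their own number, so the numbers were not taken to pair the libraries. With the replicate block 6 members were called in MI against control and 0 in each HXP comparison. Over all 13710 genes, 5201 were then called higher and 409 lower in MI against control. In each HXP comparison 0 were called higher and 1 lower.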

Other observations

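Markers of bone were low in every library, as were the members Mkx and Hapln1. The 6 osteoblast markers (Bglap, Bglap2, Ibsp, Dmp1, Sp7 and Phex) summed to at most 0.367 FPKM in any library, with medians of 0.0368 in control and 0.120 in MI, where MI 5 was highest at 0.258. Dmp1, a matrix protein of bone, was at 0.0462 to 0.124 FPKM in MI and at no more than 0.0380 in control. No other marker of the 6 had every MI library above every control library. Bglap and Bglap2 were at 0 in all MI libraries, and Ibsp averaged 0.00416 FPKM in MI and 0.0123 in control. Sp7 and Phex averaged 0.0352 and 0.0389 FPKM in MI and 0 and 0.00571 in control. Runx2, a factor of bone and growth cartilage from the list of regulators and not of these markers, was at 0.163 to 0.851 FPKM in MI and at 0.0530 to 0.104 in control. Mesothelial and epicardial markers, genes of the heart's outer lining, were higher in MI for 7 of 7 genes (limma, adjusted p of 0.0139 to 0.0233, beside 40.1% of all genes called higher), with a median difference of 1.51 beside 0.27 over all genes. Without MI 4 and MI 5 none of the 13710 genes passed, these included.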
